A study of Sus scrofa with 11 samples.

Results

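Elastic fibre genes were compared between the wounds of a diabetic and a non-diabetic Yucatan minipig. The 10 genes were chosen by name as the core protein of the fibre (ELN), the fibrillins (FBN1 and FBN2), the fibulins (FBLN1, FBLN2, FBLN5 and EFEMP2) and the microfibril-associated proteins (MFAP2, MFAP4 and MFAP5). All 10 had a row among the 30376 genes of the deposited values, and all 10 passed the filter on low values that 13956 genes passed.

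Poly-A RNA from full-thickness dorsal skin wounds made with a 2 cm punch was sequenced on day 10, with 1 library per wound. The diabetic group was 7 wounds of a female minipig in which diabetes was induced at 6 months of age by an intravenous dose of streptozotocin (125 mg/kg), a toxin of insulin-producing beta cells, and whose insulin was stopped before wounding. The non-diabetic group was 4 wounds of another female Yucatan minipig that was given the same wounds and dressings, and its age was not given in the sources used here. Each group was 1 animal, so diabetes and the individual animal cannot be told apart, and every p below rests on how far wounds within 1 animal varied. Library names start with L or R, and what the letter stands for was not given in the sources used here. There were 3 diabetic and 2 non-diabetic wounds of the letter L, and 4 and 2 of the letter R.

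An elastic fibre is a core of cross-linked elastin, which gives skin its recoil, laid on a scaffold of fibrillin microfibrils. Fibulins carry elastin to the microfibrils and bring it together with the lysyl oxidases that cross-link it, and the microfibril-associated proteins bind fibrillin and elastin. Fibrillin microfibrils also hold latent TGF-beta, a growth factor that drives matrix synthesis in wounds. Dermal fibroblasts are a main source of these proteins in skin, and granulation tissue is known for its early collagen and late elastin.

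Reads counted on genes numbered 28314785 to 40168372 per library (medians 34596338 for the diabetic and 33465950 for the non-diabetic group). Values are FPKM, reads scaled by gene length and library size, and for a 2 kb gene 0.0112 to 0.0194 FPKM stood for 1 read. Diabetic wound 4 and non-diabetic wound 1 stood apart on the first principal component (44.5% of the variance). Their summed FPKM over 9 keratinocyte markers were 41.95 and 276, against 1506 to 6512 in the other 9 wounds. Skeletal muscle markers summed to 1650 FPKM in diabetic wound 3 and to at most 2.21 elsewhere. The labelled tissue showed its defining markers: COL1A1, the main collagen of dermis, was at 13070 ± 5867 FPKM (SD, n = 7) in diabetic and 13330 ± 4950 (SD, n = 4) in non-diabetic wounds, and PECAM1, an endothelial marker, was at 91.9 ± 13.4 and 90.4 ± 13.1. KRT14 was not analysed here.

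The 300 bases around the annotated gene start (250 before to 50 after) are shown for 4 of the genes, read from Sscrofa11.1 with the RefSeq annotation. They are ELN as the core protein, FBN2, whose ratio to FBN1 separated the groups, FBLN2, which was low relative to fibroblast markers, and MFAP2, one of a set of genes that varied together from wound to wound. Each reads 5′ to 3′ on the strand of the gene, and capitals mark the GC box letters GGGCGG on either strand.
ELN (chr3:11213944-11214243, plus strand): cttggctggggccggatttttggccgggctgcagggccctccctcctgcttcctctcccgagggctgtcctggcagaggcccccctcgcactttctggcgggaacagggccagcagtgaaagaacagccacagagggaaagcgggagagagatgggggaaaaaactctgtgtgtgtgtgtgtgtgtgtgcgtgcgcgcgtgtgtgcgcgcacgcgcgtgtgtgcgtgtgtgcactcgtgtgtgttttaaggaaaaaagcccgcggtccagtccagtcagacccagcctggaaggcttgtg
FBN2 (chr2:131370192-131370491, minus strand): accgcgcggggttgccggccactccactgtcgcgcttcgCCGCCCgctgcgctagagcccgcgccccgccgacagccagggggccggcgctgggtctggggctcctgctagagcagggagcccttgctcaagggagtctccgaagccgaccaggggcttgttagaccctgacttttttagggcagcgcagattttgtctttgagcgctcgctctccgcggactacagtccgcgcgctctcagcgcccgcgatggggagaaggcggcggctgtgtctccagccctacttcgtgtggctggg
FBLN2 (chr13:70830381-70830680, minus strand): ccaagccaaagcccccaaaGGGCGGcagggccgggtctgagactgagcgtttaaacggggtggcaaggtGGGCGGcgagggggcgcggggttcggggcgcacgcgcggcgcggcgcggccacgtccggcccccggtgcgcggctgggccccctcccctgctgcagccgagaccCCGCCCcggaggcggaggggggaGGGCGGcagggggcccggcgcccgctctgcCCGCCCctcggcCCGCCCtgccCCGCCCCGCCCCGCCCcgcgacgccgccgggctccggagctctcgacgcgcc
MFAP2 (chr6:75615631-75615930, minus strand): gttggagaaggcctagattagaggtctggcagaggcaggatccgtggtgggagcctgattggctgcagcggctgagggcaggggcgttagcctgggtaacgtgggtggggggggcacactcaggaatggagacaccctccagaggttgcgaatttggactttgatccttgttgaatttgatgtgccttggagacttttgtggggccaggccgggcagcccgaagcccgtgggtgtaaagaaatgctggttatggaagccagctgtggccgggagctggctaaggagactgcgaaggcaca
The GC box was present in 4 of the 9 windows read, with 9 copies in FBLN2, 4 in FBLN1, 3 in MFAP4 and 1 in FBN2, against 50.6% of 19569 windows of the same length. The letters TATAAA were in none of the 9 windows, against 10.9% of all windows, and the letters TGANTCA (an AP-1 motif) were also in none, against 6.08%, both read on either strand. The windows differed in base composition, from 39.7% G and C in FBLN5 to 82.3% in FBLN2, with a median of 58.7% over all windows. The genes that moved together did not share the GC box, since MFAP4 held 3 copies and MFAP2, EFEMP2 and FBLN5 held none.

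None of the 10 genes was called different between diabetic and non-diabetic wounds by limma, where a call needed an adjusted p under 0.05 together with a log2 difference beyond 0.5 in size. The paper, which tested counts of these wounds with DESeq2 at the same thresholds, names FBN1 among the matrix genes lower in diabetic wounds. Calls were made for 3.00% of all genes tested, with 1.35% in the higher and 1.66% in the lower direction. At an unadjusted p under 0.05 the number was 2 of 10 genes (FBN1 and FBLN2), against 18.4% of all genes, and voom on the recovered reads also called none of the 10. The groups overlapped in each of the 10 genes, while they did not overlap in 5.65% of all genes. The median log2 difference of the 10 genes was 0.01, against 0.01 over the whole tested table, and 6 genes had a higher and 4 a lower mean log2 value in diabetic wounds. The sign of ELN, EFEMP2, MFAP2 and MFAP4 changed under some of the alternative settings.

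**Figure D1:**
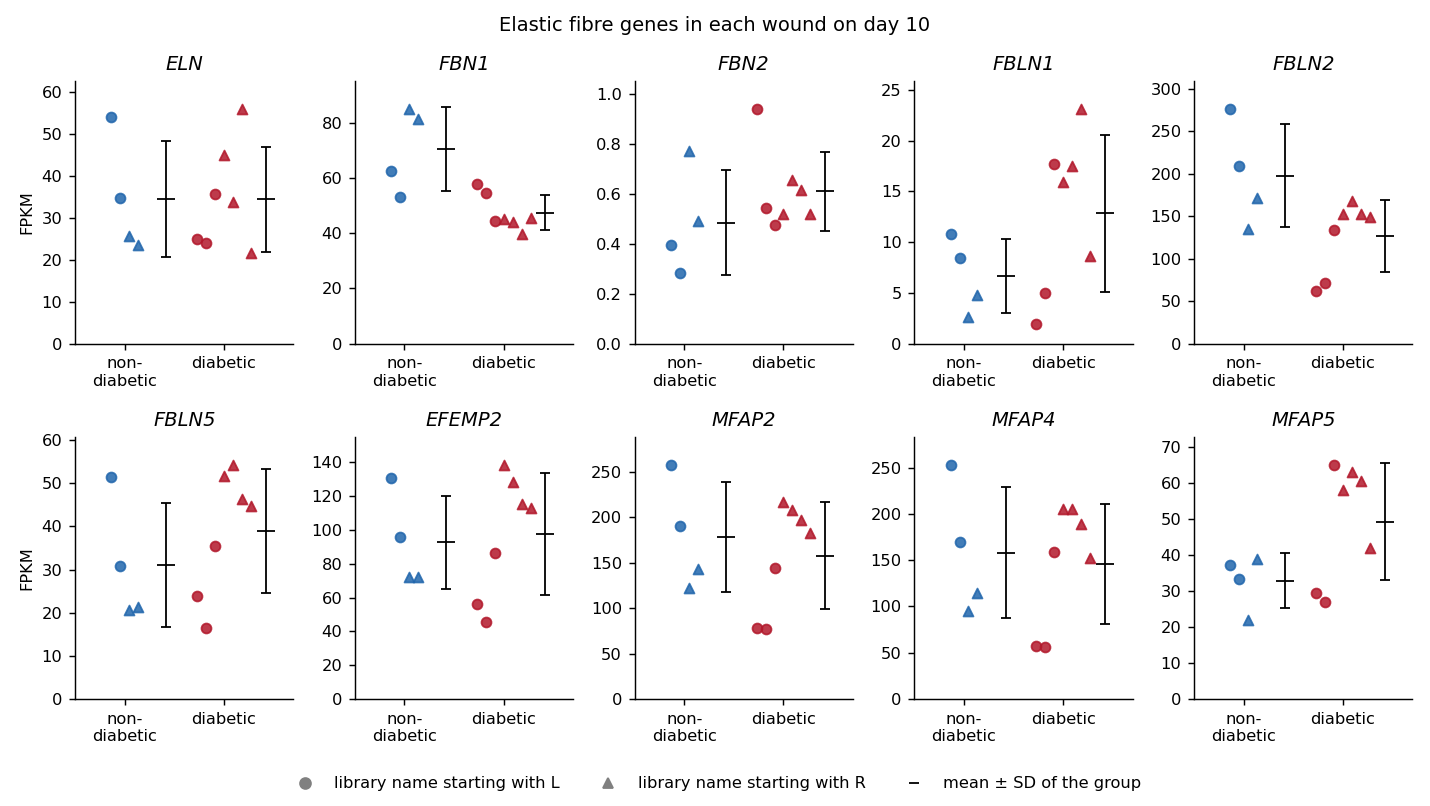
FPKM (vertical axes, from 0, a scale of its own for each gene) of the 10 elastic fibre genes in the 4 non-diabetic (blue) and 7 diabetic (red) wounds on day 10. Circles are wounds of the letter L, triangles wounds of the letter R, and black bars the mean ± SD of each group. The groups overlap for every gene, and for MFAP2, MFAP4 and EFEMP2 the lowest points are diabetic wounds 1 and 2.

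ELN encodes tropoelastin, the soluble precursor that is cross-linked into the elastin core. The gene lies at chr3:11214194-11245891 on the plus strand of Sscrofa11.1, and the annotation gives it 28 transcripts. Its level ran from 21.7 FPKM over a median of 33.8 to 55.8 FPKM in diabetic wounds. It was 53.9, 34.7, 25.5 and 23.5 FPKM in non-diabetic wounds 1 to 4. The highest ELN levels of both groups were nearly equal, the lowest too, and the groups covered the same range. The means were 34.4 ± 12.5 FPKM (SD, n = 7) and 34.4 ± 13.9 (SD, n = 4), with a log2 difference of 0.00 (95% interval −0.63 to 0.63) and an adjusted p of 0.999 (limma). The spread between wounds of 1 animal, 36.2% of the mean in the diabetic and 40.3% in the non-diabetic minipig, sets the width of that interval, and a smaller difference was not detectable with these wounds. The values are summed over transcripts, so exon use within ELN was not analysed here.

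FBN1 encodes fibrillin-1, the main structural protein of microfibrils in adult skin, and FBN2 encodes fibrillin-2, the fibrillin known mainly from developing tissue. FBN1 lies at chr1:123102011-123359649 (plus strand) and had the largest number of reads of the fibrillins, 9956 to 30280 per wound. Its level in diabetic wounds ran from 39.8 FPKM over a median of 45.4 to 57.8 FPKM. In non-diabetic wounds 1 to 4 it was 62.7, 53.0, 85.03 and 81.6 FPKM. Of the diabetic wounds, 5 of 7 lay below every non-diabetic wound, and the groups overlapped because diabetic wounds 1 and 2, at 57.8 and 54.5 FPKM, were above non-diabetic wound 2. The mean was 47.4 ± 6.35 FPKM (SD, n = 7) in the diabetic against 70.6 ± 15.3 (SD, n = 4) in the non-diabetic group, with a log2 difference of −0.55 ± 0.14 (SE, 95% interval −0.87 to −0.24). The unadjusted p was 0.0025 and the adjusted p 0.0595 (limma), so FBN1 missed the threshold. An exact permutation test (two-sided, 330 ways to assign the wounds) gave p = 0.00909, where the smallest possible p is 0.00303, and FBN1 was the only one of the 10 genes under 0.05 in that test, against 18.1% of all genes. FBN1 passed both thresholds without diabetic wound 1 (−0.60, adjusted p = 0.0405 by limma) or without non-diabetic wound 2 (−0.68, adjusted p = 0.0391). Without non-diabetic wound 3 it was −0.46 (adjusted p = 0.194 by limma) and without non-diabetic wound 4 it was −0.48 (adjusted p = 0.166), so that it passed neither threshold.

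The FBN1 transcript is long, at 9525 bases of exon, and long genes differed between the groups too. The 1086 genes of 8 to 12 kb had a median log2 difference of −0.11 between diabetic and non-diabetic wounds, and the 3115 genes of up to 2 kb one of 0.11. Relative to the genes of 8 to 12 kb in the same wound, the log2 difference was −0.45 for FBN1 (exact permutation p = 0.00606) and 0.29 for FBN2 (exact permutation p = 0.0394), a setting chosen after the data were seen. FBN2 passed the filter through the diabetic wounds, so its p is a description only. Without this setting the exact permutation p of FBN2 was 0.224. The part that transcript length has in either value was not tested.

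FBN2 (chr2:131150665-131370241, minus strand) was near the lower limit of the filter, with 93 to 345 reads per wound, and its level reached 0.5 FPKM in 6 diabetic wounds and 1 non-diabetic wound, so it passed the filter through the diabetic wounds. It ran from 0.475 FPKM over a median of 0.542 to 0.939 FPKM in diabetic wounds and was 0.394, 0.285, 0.772 and 0.49 FPKM in non-diabetic wounds 1 to 4. Diabetic wound 1 and non-diabetic wound 3 were the highest, and the groups overlapped. The log2 difference was 0.18 (95% interval −0.15 to 0.52), with an adjusted p of 0.572 (limma), and the pseudocount of 0.5 FPKM is as large as these levels, so that this scale understates the difference.

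The ratio of both fibrillins within a wound differed between the groups. Without the pseudocount such a ratio does not depend on the scaling between libraries. With it the ratio does, since FBN2 was near 0.5 FPKM. FBN2 was 0.00996 to 0.0163 times FBN1 in diabetic wounds, with a median of 0.0115. It was 0.00629, 0.00537, 0.00907 and 0.006 times FBN1 in non-diabetic wounds 1 to 4. Every diabetic wound had a higher FBN2 to FBN1 ratio than every non-diabetic wound. FBN2 had passed the filter through the diabetic wounds, and at 93 to 345 reads per wound it was the low gene of this pair. The log2 difference was 0.74 with the pseudocount and 0.95 without it, and the exact permutation p was 0.00303, the smallest this design allows (0.00909 after Benjamini-Hochberg adjustment over the 3 ratios compared). With the pseudocount, the log2 difference of FBN1 alone was −0.55 and that of FBN2 0.18, so FBN1 made up most of the 0.74. The direction was the same among L wounds (0.59) and among R wounds (0.87). FBN1 was the far more abundant transcript in every wound of both animals.

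**Figure D2:**
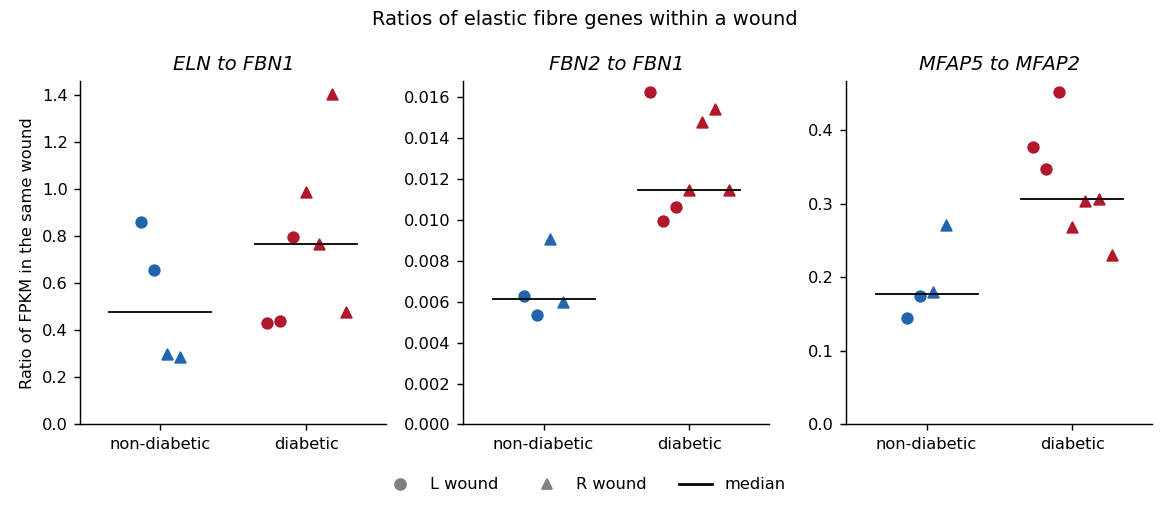
Ratio of FPKM of a pair of genes in the same wound (vertical axes, from 0) for ELN to FBN1, FBN2 to FBN1 and MFAP5 to MFAP2 in the 4 non-diabetic (blue) and 7 diabetic (red) wounds. Circles are L wounds, triangles R wounds and lines group medians. The FBN2 to FBN1 ratio separates the groups, with 0.00996 as the lowest diabetic and 0.00907 as the highest non-diabetic value.

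The ratio of the core protein to its scaffold did not separate the groups. ELN was 0.432 to 1.403 times FBN1 in diabetic wounds, with a median of 0.764, and 0.86, 0.654, 0.3 and 0.288 times FBN1 in non-diabetic wounds 1 to 4. The log2 difference of 0.56 had an exact permutation p of 0.233. It was −0.49 among L wounds and 1.502 among R wounds, opposite directions under the 2 letters.

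Fibulins are the calcium-binding glycoproteins that link elastin to the scaffold. FBLN5 and EFEMP2 are needed for fibre assembly in mice, while FBLN1 and FBLN2 bind fibrillin, elastin and basement membrane proteins. FBLN2 had a lower mean log2 value in diabetic wounds. Its level (chr13:70757255-70830430, minus strand) ran from 62.4 FPKM over a median of 149 to 168 FPKM in diabetic wounds. In non-diabetic wounds 1 to 4 it was 276, 209, 135 and 172 FPKM. Diabetic wounds 1 and 2 were far below the others, at 62.4 and 71.0 FPKM, and the remaining 5 diabetic wounds lay near non-diabetic wounds 3 and 4. The log2 difference of −0.68 (95% interval −1.34 to −0.01) had an adjusted p of 0.263 (limma).

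FBLN1 (chr5:3839498-3927178, minus strand) had the widest spread of the 10 genes, with an SD of 60.3% of the mean in diabetic and 54.9% in non-diabetic wounds. Its level ran from 1.91 FPKM over a median of 15.9 to 23.1 FPKM in diabetic wounds, against 10.8, 8.48, 2.65 and 4.78 FPKM in non-diabetic wounds 1 to 4. Diabetic wounds 3 to 6 were above all non-diabetic wounds, while diabetic wound 1 was the lowest of all 11. The mean was 12.8 ± 7.74 FPKM (SD, n = 7) against 6.69 ± 3.67 (SD, n = 4), and the log2 difference of 0.73 (95% interval −0.59 to 2.05) had an adjusted p of 0.572 (limma).

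FBLN5 (chr7:113423629-113526412, minus strand) ran from 16.4 FPKM over a median of 44.6 to 54.3 FPKM in diabetic wounds, and was 51.4, 30.8, 20.6 and 21.3 FPKM in non-diabetic wounds 1 to 4. EFEMP2 (chr2:6455155-6463493, plus strand) ran from 45.7 FPKM over a median of 113 to 139 FPKM in diabetic wounds, and was 131, 95.7, 72.1 and 72.5 FPKM in non-diabetic wounds 1 to 4. For both genes non-diabetic wound 1 was within the range of the high diabetic wounds, and diabetic wounds 1 and 2 were among the lowest of all. The log2 differences were 0.32 (95% interval −0.45 to 1.09, adjusted p = 0.686 by limma) for FBLN5 and 0.02 (−0.67 to 0.70, adjusted p = 0.986) for EFEMP2. The annotated span of FBLN5 overlaps that of TRIP11 on the same strand, and that of EFEMP2 overlaps MUS81 on the opposite strand. The strand setting of the authors' counting was not given in the sources used here, so the share of reads from these neighbours is unknown.

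MFAP2 and MFAP5 encode microfibril-associated glycoproteins that bind fibrillin, and MFAP4 encodes a fibrinogen-domain protein that binds tropoelastin and fibrillin. MFAP2 (chr6:75607515-75615680, minus strand) ran from 77.5 FPKM over a median of 182.5 to 216.5 FPKM in diabetic wounds, and was 257.5, 190.3, 122 and 143 FPKM in non-diabetic wounds 1 to 4. MFAP4 (chr12:60141488-60144214, plus strand, overlapping MAPK7 on the opposite strand) ran from 55.8 FPKM over a median of 159 to 205 FPKM in diabetic wounds, and was 253, 169, 95.5 and 115 FPKM in non-diabetic wounds 1 to 4. Both genes were highest in non-diabetic wound 1 and lowest in diabetic wounds 1 and 2. Neither difference between the groups exceeded the spread between wounds, with log2 differences of −0.23 (95% interval −0.96 to 0.51, adjusted p = 0.780 by limma) for MFAP2 and −0.18 (−1.12 to 0.76, adjusted p = 0.868) for MFAP4.

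MFAP5 (chr5:62742520-62757522, plus strand) had a different order. Its level ran from 26.9 FPKM over a median of 58.0 to 65.1 FPKM in diabetic wounds, against 37.4, 33.2, 21.9 and 38.9 FPKM in non-diabetic wounds 1 to 4. The diabetic wounds other than 1 and 2 were above every non-diabetic wound. The mean was 49.3 ± 16.3 FPKM (SD, n = 7) against 32.9 ± 7.68 (SD, n = 4), and the log2 difference of 0.53 (95% interval −0.07 to 1.14) had an adjusted p of 0.333 (limma) and an exact permutation p of 0.115.

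Relative to MFAP2 in the same wound, MFAP5 was higher in diabetic wounds. MFAP5 was 0.230 to 0.451 times MFAP2 in diabetic wounds, with a median of 0.307. The ratio was 0.145, 0.175, 0.180 and 0.271 in non-diabetic wounds 1 to 4, and only non-diabetic wound 4 lay above the lowest diabetic wounds. The log2 difference of 0.76 had an exact permutation p of 0.00909 (0.0136 after adjustment over the 3 ratios), and the direction was the same among L wounds (1.29) and R wounds (0.31).

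Per length, the order of the levels in diabetic wounds was MFAP2, MFAP4, FBLN2, EFEMP2, MFAP5, FBN1, FBLN5, ELN, FBLN1 and FBN2, from 158 to 0.610 FPKM. In non-diabetic wounds it was FBLN2, MFAP2, MFAP4, EFEMP2, FBN1, ELN, MFAP5, FBLN5, FBLN1 and FBN2, from 198 to 0.485 FPKM. FBLN2 was above MFAP2 in 4 of 4 non-diabetic wounds, whereas MFAP2 had the highest mean in diabetic wounds. Neighbours in the diabetic order that changed places from wound to wound were MFAP2 over MFAP4 (6 of 7 wounds), MFAP4 over FBLN2 (5 of 7), MFAP5 over FBN1 (4 of 7), FBN1 over FBLN5 (4 of 7) and FBLN5 over ELN (3 of 7). In the non-diabetic order they were EFEMP2 over FBN1 (2 of 4), ELN over MFAP5 (3 of 4) and MFAP5 over FBLN5 (3 of 4). Whether those neighbours differ in level was not tested.

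The wounds of each animal were not alike, and most elastic fibre genes followed the same order of wounds. In 7 genes (FBLN1, FBLN2, FBLN5, EFEMP2, MFAP2, MFAP4 and MFAP5) diabetic wounds 1 and 2 were the lowest of the diabetic wounds, and in FBN1 they were the highest. In 7 genes (ELN, FBLN1, FBLN2, FBLN5, EFEMP2, MFAP2 and MFAP4) non-diabetic wound 1 was the highest of its group and wounds 3 and 4 the lowest, while in FBN1 and FBN2 wounds 3 and 4 were the highest. The genes of 8 to 12 kb had an order like that of FBN1. Their median log2 deviation was highest in diabetic wounds 1 (0.0861) and 2 (0.0811) and non-diabetic wounds 3 (0.1694) and 4 (0.085). It was −0.1103 to −0.0584 in diabetic wounds 3 to 7. The part of transcript length in the order of FBN1 was not tested. Across all 11 wounds the Pearson correlation of log2 values between MFAP2, MFAP4, EFEMP2 and FBLN5 was 0.861 to 0.985, and that of FBN1 with those 4 genes was −0.646 to −0.326. These correlations pool both animals and share the scaling of each library, and they are given as a description only.

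**Figure D3:**
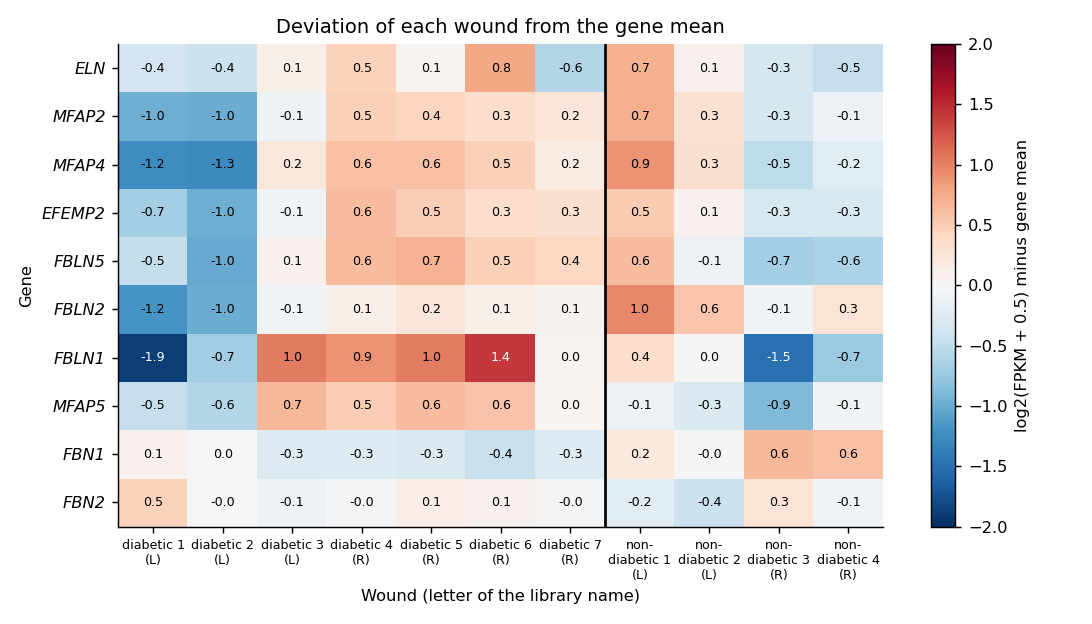
Deviation of log2(FPKM + 0.5) from the mean of the gene over all 11 wounds (colour and printed value) for the 10 elastic fibre genes (rows) in each wound (columns, with the letter of the library name). The black line separates diabetic from non-diabetic wounds. Diabetic wounds 1 and 2 are blue for MFAP2, MFAP4, EFEMP2, FBLN5 and FBLN2, and FBN1 is red in non-diabetic wounds 3 and 4.

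Of 10 fibroblast markers, 9 had their lowest diabetic levels in wounds 1 and 2 and their highest non-diabetic level in wound 1. The exception was PDGFRA, a receptor for platelet-derived growth factor, which was highest in non-diabetic wound 4 (58.3 FPKM) and lowest in diabetic wound 6 (20.4 FPKM). The 10 fibroblast markers (PDGFRA, PDGFRB, DCN, LUM, COL1A1, COL1A2, COL3A1, COL5A1, THY1 and DPT) summed to 19560 to 54100 FPKM in diabetic wounds, lowest in wounds 2 (19560) and 1 (23150), and to 35170 to 66500 FPKM in non-diabetic wounds, highest in wound 1, sums made up largely of COL1A1, COL1A2 and COL3A1. None of the 10 was at 0 in every wound, and limma called 0 of 10 (0 of 10 also at an unadjusted p under 0.05). In bulk tissue, fewer fibroblasts and less RNA per fibroblast cannot be told apart. The 8 markers of myofibroblasts and smooth muscle, of which 0 were called and 2 had an unadjusted p under 0.05, summed to 594 to 1249 FPKM in diabetic and 522 to 963 in non-diabetic wounds. Of all genes tested, 3.00% were called and 18.4% had an unadjusted p under 0.05 (limma).

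When the mean log2 value of the 10 fibroblast markers in the same wound was subtracted from each gene, a setting chosen after the data were seen, the groups differed in 4 of the 10 genes (exact permutation p under 0.05), against 9.57% of all genes. FBLN2 was lower relative to the markers in every diabetic wound than in every non-diabetic wound, with a log2 difference of −0.47 and an exact permutation p of 0.00303. It was the 1 gene of 10 whose groups did not overlap on this scale, against 3.45% of all genes. FBLN5 was higher by 0.53 and MFAP5 by 0.74 (exact permutation p = 0.00606 for each), and EFEMP2 by 0.22 (exact permutation p = 0.0424). These p-values are not adjusted for the 10 genes compared. The mean of the markers was lower in the diabetic group, so the subtraction moved the difference of every gene up by the same amount. Without it the log2 differences were −0.68 for FBLN2, 0.32 for FBLN5, 0.53 for MFAP5 and 0.02 for EFEMP2, none of them called. For FBN1 the difference relative to the markers was −0.35 with an exact permutation p of 0.297, so the lower FBN1 level did not exceed the spread on this scale. Among the diabetic wounds, wounds 1 and 2 were the highest for FBN1 and the lowest for 9 of the 10 markers. The subtraction therefore added spread for FBN1, with an SD of 0.64 in diabetic wounds on this log2 scale. ELN (0.21, exact permutation p = 0.479), MFAP2 (−0.02, p = 0.897) and MFAP4 (0.03, p = 0.915) had no difference beyond the spread either.

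The difference between the groups changed with the letter of the library name. Among L wounds 7 of the genes had a log2 difference below −0.5, namely ELN (−0.63), FBLN1 (−0.70), FBLN2 (−1.51), FBLN5 (−0.72), EFEMP2 (−0.88), MFAP2 (−1.20) and MFAP4 (−1.37). Among R wounds the same genes were at 0.58, 1.96, 0.03, 1.21, 0.77, 0.60 and 0.83. FBN1 went the other way, with −0.15 among L and −0.93 among R wounds, FBN2 was at 0.44 and −0.06, and MFAP5 at 0.08 and 0.91. In a fit with letter, group and their interaction, chosen after the data were seen, the difference between R and L passed an adjusted p under 0.05 in 6 of 10 genes (limma), against 6.46% of all genes. Among those 6 it was largest in MFAP4 (2.2, 95% interval 0.95 to 3.45, adjusted p = 0.0496) and reached −0.78 in FBN1 (−1.18 to −0.38, adjusted p = 0.0425). Each cell of that comparison holds 2 to 4 wounds, and L diabetic wounds 1 and 2 and non-diabetic wound 1 enter it on the low and the high side.

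**Figure D4:**
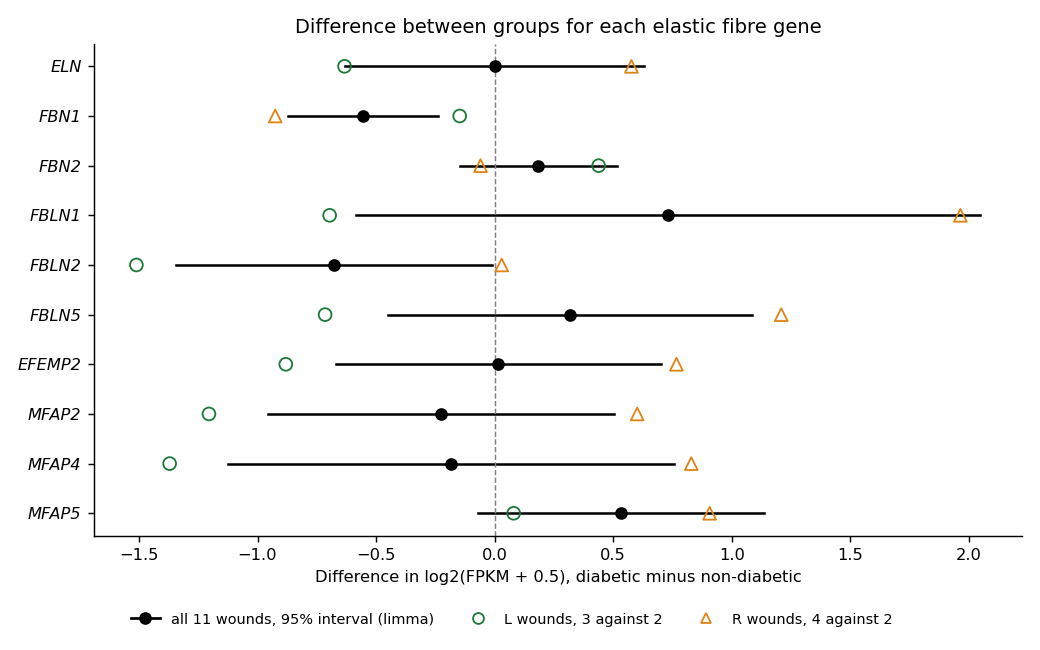
Difference in mean log2(FPKM + 0.5), diabetic minus non-diabetic, for the 10 elastic fibre genes. Black points with bars are all 11 wounds with their 95% interval (limma), green circles the L wounds (3 against 2) and orange triangles the R wounds (4 against 2). Circles and triangles fall on opposite sides of 0 for ELN, FBN2, FBLN1, FBLN2, FBLN5, EFEMP2, MFAP2 and MFAP4, with FBN2 and FBLN2 near 0 among R wounds, and FBN1 is below 0 under both letters.

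The genes whose levels followed ELN and FBN1 most closely over the 11 wounds were read from the 13901 other genes of a unique symbol that passed the filter. For ELN they were LOC110259234 (Pearson r = 0.923), HEMK1 (0.897) and SDR39U1 (0.871), none of which was called. For FBN1 they were RNF150 (0.978), MON2 (0.977) and JMJD1C (0.972). RNF150 was called lower in diabetic wounds (0.432 ± 0.151 against 1.15 ± 0.391 FPKM, SD, n = 7 and 4), with a log2 difference of −0.81 and an adjusted p of 0.0266 by limma, which was 0.0540 to 0.101 without diabetic wound 3, 5 or 7 or without non-diabetic wound 1, 3 or 4. The correlations are a description over wounds that share their animals and scaling.

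Genes that act on elastic fibres were read from a list of 46 genes in 8 roles, of which 45 were tested (PI3, an elastase inhibitor, was under the filter). The diabetic group had more TIMP3 and less ADAMTS6, both called. That is 1 of 45 higher against 1.35% of all genes, and 1 of 45 lower against 1.66%. The 2 groups did not overlap for 4 of the 45 genes, against 5.65% of all genes, and 14 had an unadjusted p under 0.05, against 18.4%. The median log2 difference of the 45 genes was 0.11.

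TIMP3, an inhibitor of metalloproteinases that is bound to the matrix, had 27.0 to 44.8 FPKM in diabetic wounds (median 38.6) and 14.2 to 20.4 FPKM in non-diabetic wounds (median 15.9). Every diabetic wound was above every non-diabetic wound. The log2 difference was 1.09 ± 0.15 (SE), with an adjusted p of 0.00213 (limma). The other measured inhibitors, of which CST3 had the highest level, had no call, and CST3 (cystatin C, an inhibitor of cysteine cathepsins) was at 2046 ± 634 FPKM (SD, n = 7) against 2045 ± 484 (SD, n = 4).

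ADAMTS6, a metalloproteinase that binds and cleaves microfibril proteins, had 2.89 to 4.77 FPKM in diabetic wounds (median 3.9) and 5.13 to 7.49 FPKM in non-diabetic wounds (median 7.39). All diabetic wounds were below all non-diabetic wounds. The log2 difference was −0.73 ± 0.14 (SE), with an adjusted p of 0.0175 (limma). It was −0.69 without non-diabetic wound 1 (adjusted p = 0.0664) and −0.68 without wound 3 (0.0651) or wound 4 (0.0633), and so was no longer called. The same holds without both wounds that stood apart (−0.69, adjusted p = 0.0880). Of the other 6 microfibril-binding ADAMTS proteins none was called, and ADAMTS10, the most abundant, was at 54.8 ± 12.4 against 57.1 ± 9.55 FPKM.

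The 5 cross-linking enzymes had no call. LOXL2, the most abundant, was at 311 ± 132 FPKM (SD, n = 7) in diabetic and 331 ± 104 (SD, n = 4) in non-diabetic wounds. LOX, which oxidises elastin and collagen lysines and is named here after its values were seen, was at 59.8 ± 18.2 against 98.3 ± 27.1 FPKM, with a log2 difference of −0.72 and an adjusted p of 0.146 (limma).

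Over all genes tested, 3.00% were called and 18.4% had an unadjusted p under 0.05 (limma), and each role below holds few genes. Among the elastin-degrading proteases 0 of 9 were called (3 of 9 at an unadjusted p under 0.05), and MMP2, a gelatinase, had the highest level at 2436 ± 1136 against 2564 ± 1101 FPKM. None of the 4 latent TGF-beta binding proteins was called by limma (1 at an unadjusted p under 0.05), and LTBP1, which stores latent TGF-beta on microfibrils, was at 22.9 ± 4.47 against 20.2 ± 4.33 FPKM. The 5 other fibulins and emilins had 0 calls (1 at an unadjusted p under 0.05), with EMILIN1, a glycoprotein at the elastin and microfibril interface, at 140.8 ± 42.3 against 118 ± 16.3 FPKM. The 6 elastin receptors and integrins had 0 calls (0 at an unadjusted p under 0.05), and ITGB5, an integrin chain that binds matrix proteins, was at 108 ± 32.4 against 104 ± 27.6 FPKM. The 3 TGF-beta ligands had 0 calls (2 at an unadjusted p under 0.05), and TGFB1 was at 31.2 ± 5.09 against 23.7 ± 2.14 FPKM, with a log2 difference of 0.38 and an adjusted p of 0.127 (limma).

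**Figure D5:**
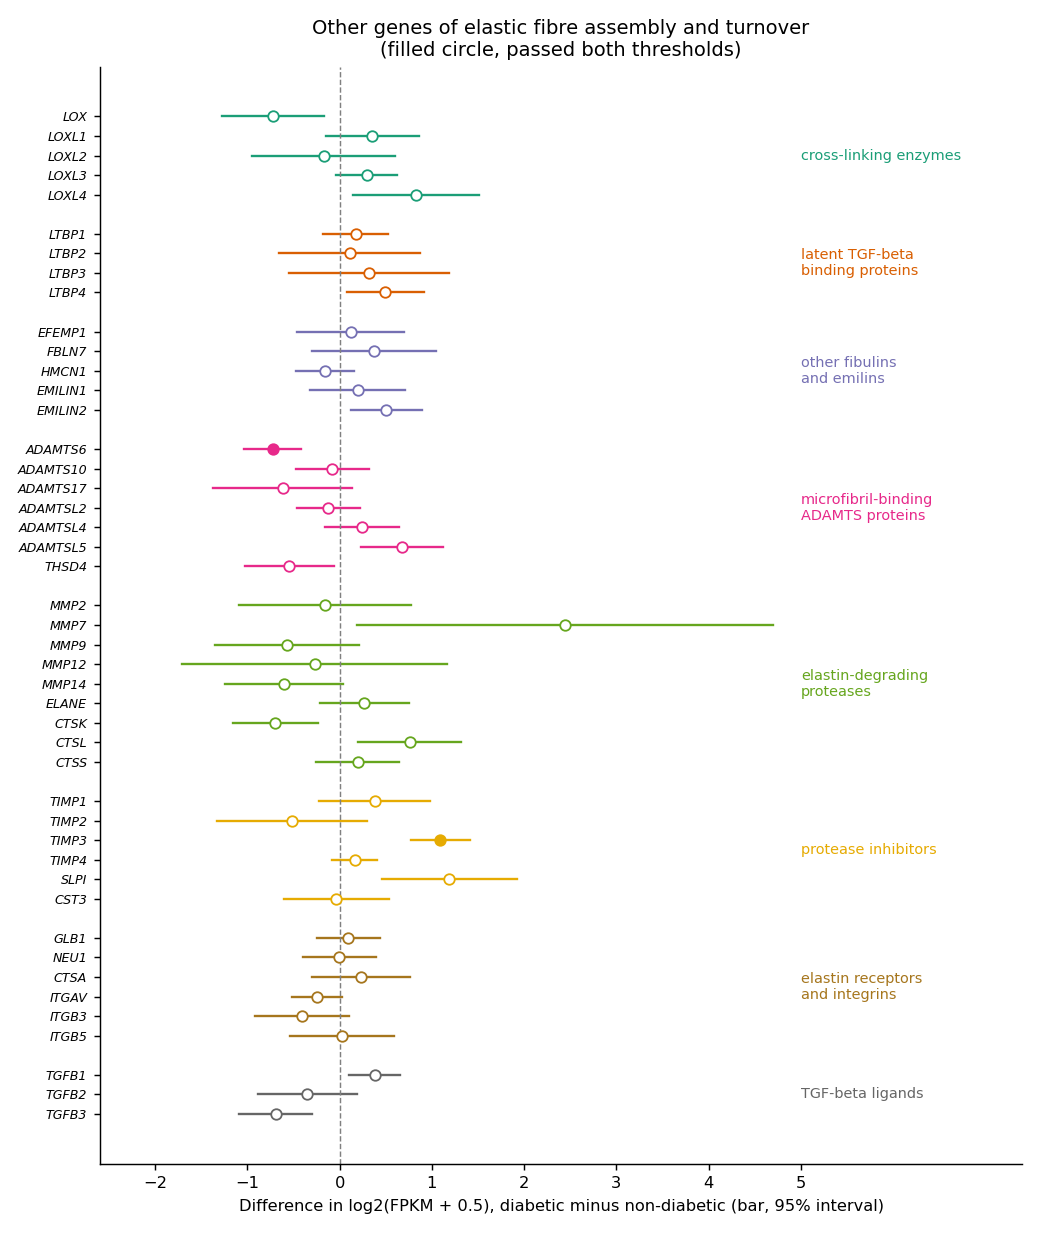
Difference in mean log2(FPKM + 0.5), diabetic minus non-diabetic, with its 95% interval (limma) for the 45 tested genes that act on elastic fibres, coloured by role. Filled circles mark the genes that passed both thresholds, TIMP3 at 1.09 and ADAMTS6 at −0.73.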

How the data were processed

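Per the labels and the paper's methods, the authors purified poly-A RNA, made directional libraries, cleaned reads (fastp), aligned them with HISAT2 (2.2.1) to the Sscrofa11.1 assembly, used StringTie (2.2.3), counted with featureCounts (2.0.6) and tested counts with DESeq2. The deposited FPKM values are those reads divided by gene length and a library size, and their formula was not given in the sources used here. Multiplied by gene length, 100.0% of the deposited FPKM values were whole reads to within 0.05 reads, and the library size was 0.995 to 1.01 times a median-of-ratios scaling, so the values are already scaled between libraries. The files share gene identifiers and starts with the RefSeq annotation of Sscrofa11.1.

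Groups were taken from the sample titles. Genes reaching 0.5 FPKM in 4 or more libraries entered limma 3.58.1 in R 4.3.3 (lmFit, eBayes with trend, no covariate) as log2(FPKM + 0.5), with Benjamini-Hochberg adjustment over all 13956 of them. A call needed an adjusted p under 0.05 together with a log2 difference beyond 0.5 in size. Fold changes on this scale understate changes of low genes. Single genes and ratios had an exact permutation test (two-sided, 330 assignments of 7 and 4 wounds). The fit was tested on simulated data. Alternatives changed the pseudocount, filter, scaling, spread estimate, library weights, replicate block, letter covariate, the wounds included and voom on recovered reads. Later ones used no pseudocount, fibroblast markers, long genes and the letter interaction. The genes of the list of 46, the markers and the 10 members were chosen with earlier results of these data known. The genes named are all members, the called and the most abundant gene of each role, the 3 closest patterns to ELN and FBN1, and defining markers. LOX, LTBP4, SLPI, TGFB3 and the macrophage markers were added after their values were seen. Python 3.11.15, numpy 2.4.6, pandas 2.3.3 and matplotlib 3.10.9 were used. 1 sequence is not reported here.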

Additional observations from a re-analysis of the deposited data

Results flagged for a closer look

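The FBN2 level of 0.939 FPKM in diabetic wound 1 lay far above the other 6 diabetic wounds, with a gap of 0.613 of the range of the group. It was 1 of 26 groups of values examined in this way, of which chance flags about 1 in 20.

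For 6 elastic fibre genes the log2 difference between diabetic and non-diabetic wounds differed between wounds of the letter R and wounds of the letter L (limma interaction, adjusted over 13956 genes). The difference among R wounds minus that among L wounds was 2.2 for MFAP4 (adjusted p = 0.0496), 1.92 for FBLN5 (0.0418), 1.81 for MFAP2 (0.0410), 1.65 for EFEMP2 (0.0410), 1.54 for FBLN2 (0.0493) and −0.78 for FBN1 (0.0425). At an unadjusted p under 0.05 it was 8 of the 10 genes, against 31.4% of all genes. The reads on COL1A1, COL1A2 and COL3A1 were 11.7% and 10.3% of all reads on genes in diabetic wounds 1 and 2 (letter L) and 27.0% in non-diabetic wound 1 (letter L), against 17.3% to 22.8% in the other 8 wounds. Their part in these values was not tested.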

How the results depend on the processing

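No alternative reversed a called result. The number of elastic fibre genes called, 0 of 10, was 1 with library weights (FBN1, log2 difference −0.64, adjusted p = 0.0137 by limma) and 0 to 1 when a wound was left out in turn (1, FBN1, without diabetic wound 1 or non-diabetic wound 2). FBN1 stayed lower in all 25 alternatives, from −0.68 to −0.46, with adjusted p-values from 0.0137 to 0.678. The number of other elastic fibre genes called, 2 of 45, was 4 with TPM, 4 with quantile normalization, 7 with library weights, 0 with the replicate block, 1 without both wounds that stood apart, and 1 to 3 when a wound was left out. TGFB3 (named after its values were seen) was called lower with TPM (−0.77, adjusted p = 0.0243), quantile normalization (−0.77, 0.0401) library weights (−0.60, 0.0356) and without diabetic wound 6 (−0.78, 0.0295). The wounds share only a number across the groups: the correlation of same-numbered wounds was −0.27, 0.22, 0.07 and −0.48, none of the 4 non-diabetic wounds correlated best with its own number, and the block left 16 of 419 calls over all genes. TIMP3 was called in the other 24 alternatives. The FBN2 to FBN1 ratio (0.67 to 0.95, exact permutation p from 0.00303 to 0.0119) and the MFAP5 to MFAP2 ratio (0.64 to 0.94, from 0.00833 to 0.0357) kept their side in 15 alternatives each, and the ELN to FBN1 ratio (0.32 to 0.84, from 0.0917 to 0.525) stayed above the threshold. The sign was the same as in the main comparison in 14 of 25 alternatives for ELN, 15 for EFEMP2 and 21 for MFAP4. The exact permutation p fell to 0.0429 for MFAP5 without diabetic wound 2 and to 0.025 for FBN2 without non-diabetic wound 3. Since FBN2 passed the filter through the diabetic wounds, its p is a description only. FBN2 was not tested with a filter of 1 FPKM. Library weights raised the calls over all genes to 822. The causes were not tested. FBN2 rested on 93 to 345 reads per wound, and the SD between wounds was 25.9% and 43.0% of its mean.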

Other observations

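SLPI, an inhibitor of neutrophil elastase chosen here after its values were seen, had 133 to 223 FPKM in diabetic wounds and 26.1 to 123 FPKM in non-diabetic wounds, which did not overlap (log2 difference 1.19, adjusted p = 0.0793 by limma). The difference was 0.73 (adjusted p = 0.0904) without non-diabetic wound 1, a wound that stood apart with low keratinocyte markers, and 0.92 (adjusted p = 0.0490) with library weights. TGFB3, a TGF-beta ligand, averaged 13.1 ± 2.79 FPKM (SD, n = 7) against 21.7 ± 6.27 in the non-diabetic group (SD, n = 4, log2 difference −0.69, adjusted p = 0.0612 by limma). The paper, which used DESeq2 on counts, names TGFB3 among the matrix genes lower in diabetic wounds. LTBP4, which binds fibulins and latent TGF-beta, was named here after its values were seen. It was at 17.8 ± 4.62 FPKM in the diabetic against 12.2 ± 1.42 FPKM in the non-diabetic group (log2 difference 0.50, adjusted p = 0.191 by limma).

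Of the 8 macrophage markers none was called and 4 had an unadjusted p under 0.05 (limma), against 18.4% of all genes. They were CD163 and the complement genes C1QA, C1QB and C1QC, all with higher means in the diabetic group, while MSR1 had a log2 difference of −0.29. The macrophage sums of 705 to 1642 FPKM in the diabetic and 457 to 872 FPKM in the non-diabetic group were made up largely of the C1Q genes.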
